A study of Homo sapiens with 4 samples.

Results

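The genes described here encode ligands of the epidermal growth factor family (EREG, AREG, HBEGF, TGFA, BTC and NRG1), receptors of the ERBB family (EGFR, ERBB2 and ERBB3) and the intracellular receptor inhibitor ERRFI1. A probe was taken when it was no control spot and the array design gave it the name of 1 of these 10 genes, or when its accession was a RefSeq transcript of that gene. This gave 29 of 50238 probes on the array, and all 10 genes were among the 17649 genes or transcripts tested. The study asked which transcripts change in A549 cells early after embelin. A549 is an established human line from a lung adenocarcinoma. Embelin is a plant-derived benzoquinone carrying a long alkyl side chain. All cells were grown in 10% serum and moved to 2% serum for the 12 h before treatment. The embelin group (n = 2) received 15 µM embelin for 4 h, and the control group (n = 2) was left untreated. Every sample is thus the same line in low serum, at 1 dose and 1 time. Nothing in the labels says that the replicates came from separate cultures, so p-values measure the spread between these samples, which may be technical. A change in which cells were alive and a change in the RNA of each cell cannot be told apart in such samples. All signals are of RNA, not of protein.

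The ligands are made as membrane-anchored precursors, are cut loose by sheddases at the cell surface and bind receptors on the same or on nearby cells. Bound receptors pair, phosphorylate each other and feed the RAS and ERK pathway and the PI3-kinase pathway. ERBB2 has no known ligand of its own and ERBB3 has little kinase activity, so both work mainly as partners in pairs, and EGFR is the receptor most often mutated or amplified in lung adenocarcinoma. ERRFI1, also called MIG6, binds the kinase domain of EGFR, blocks the pairing of active kinases and is itself transcribed in response to growth factors and to stress.

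Each sample was hybridized to 1 single-colour (Cy3) array of 1 slide, scanned at 1 time. Levels below are normalized log2 signals, scaled so that the 75th percentile of every array is 9.40, and a difference of 1 between such signals is a 2-fold change of one probe's signal. Signals of different probes were not compared with each other. Control 1 and embelin 2 had lower background, with 66.7% and 66.4% of probes well above background, and control 2 and embelin 1 had noisier background, with 50.3% and 51.2%. On the slide the controls took positions 4 and 1 and the treated samples 2 and 3, and position and treatment cannot be told apart. The epithelial markers KRT7, KRT8, KRT18, KRT19 and EPCAM were well above background on all 4 arrays. They mark the epithelial origin that A549 should have. None of these 5 passed limma's adjusted test (0 at an unadjusted p under 0.05). At their brightest kept probes the log2 fold changes lay between -0.56 and 0.05. Other kept probes read -0.71 for KRT8 and -0.42 and -0.31 for KRT18. PTPRC, PECAM1, CDH5, VWF, COL1A2, DCN and LUM did not pass the filter on dim probes. Some probe of PTPRC, COL1A2 and LUM was still well above background on 1 array, and of PECAM1 and VWF on 2. The highest signals of PTPRC, COL1A2 and LUM on any array were 7.57, 8.30 and 7.44. CD3E and PDGFRA passed that filter through the embelin arrays, with only 1 control array well above background. CD14 read 9.54 in control and 8.93 in embelin with an adjusted p of 0.232 in limma.

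Embelin-treated cells carried more ERRFI1 and AREG RNA than control cells. ERRFI1 was 7.76-fold higher and AREG 2.99-fold higher, and both passed limma's test at an adjusted p under 0.05. They were 2 of the 10 genes, against 1.81% of all genes tested that were called in either direction and 1.25% called higher. None of the 10 was called lower, against 0.561% of all genes. The 10 genes were chosen with earlier results of these data known, so the shares in this paragraph describe them and are no test. A fold change of 2 or more upward was read at the standing probe of 5 of the 10 genes (ERRFI1, HBEGF, ERBB3, AREG and TGFA), against 6.66% of all genes, and a fall of that size at none, against 5.95%. The standing probe of a gene is the brightest of its probes that passed the filter on dim probes. Of the 29 probes 20 passed that filter, 16 were well above background on all 4 arrays and 2 on none. The median log2 fold change over the 10 standing probes was 0.98, while that over all genes tested was -0.06. Control and embelin arrays did not overlap in 7 of the 10, 6 of them higher in embelin and ERBB2 lower. Of the 17298 genes measured on each array 51.8% did not overlap, 21.1% higher and 30.7% lower. At an unadjusted p under 0.05, 5 of the 10 passed (EREG, AREG, EGFR, ERBB3 and ERRFI1), all higher, against 19.5% of all genes in either direction. The standing probe of ERBB3 passed the filter only through the embelin arrays, where it is high, so its part in these counts is no evidence of a rise. Over the other 9 standing probes, well above background on all 4 arrays and counted apart after the values were seen, 4 were at least 2-fold higher, 6 did not overlap, 4 passed at an unadjusted p under 0.05 and the median was 0.90. Among those 4 with a 2-fold change, HBEGF and TGFA rested on single arrays. Without control 1 HBEGF read 0.45 and TGFA -0.29, without embelin 1 TGFA read -0.17, and with normexp background correction TGFA read 0.39, while ERBB3 read 0.69.

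**Figure D1:**
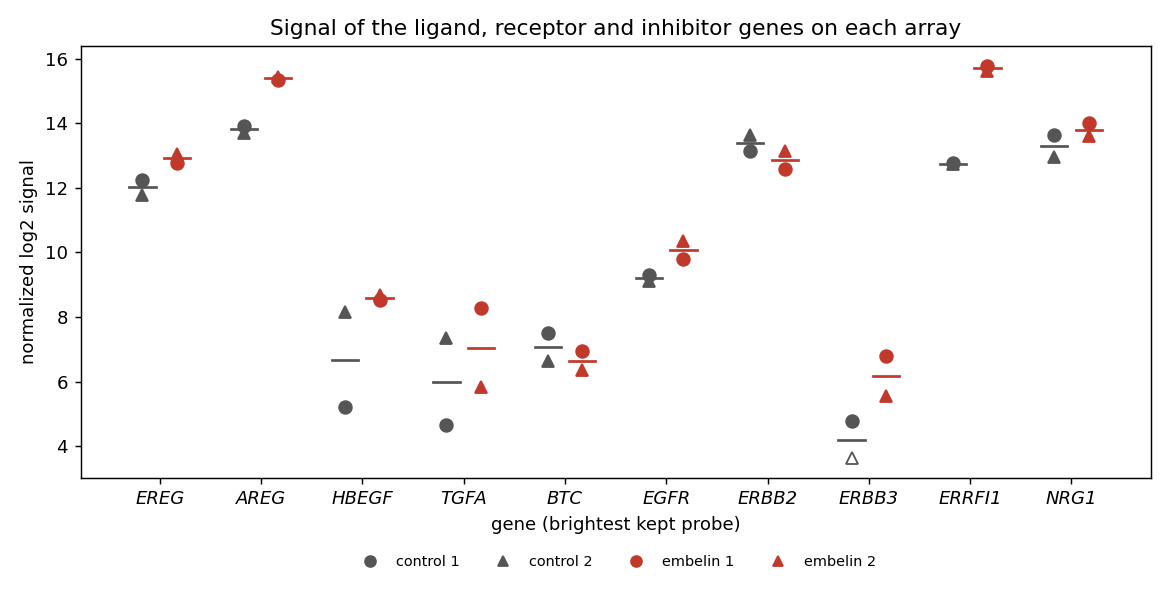
Normalized log2 signal of the standing probe of each gene (x axis) on each of the 4 arrays, with controls in grey, embelin in red, circles for replicate 1, triangles for replicate 2, an open symbol for a signal not well above background and a bar for the mean of each group. For ERRFI1 and AREG the arrays of a group lie close together with embelin above control, while the 2 controls of HBEGF and both pairs of TGFA lie far apart.

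AREG encodes amphiregulin, an EGFR ligand that is released from lung epithelium. Its 1 probe read 13.92 and 13.70 in control and 15.33 and 15.45 in embelin. Both embelin arrays thus lay more than 1 log2 unit above both controls. The mean was 13.81 ± 0.15 in control and 15.39 ± 0.08 in embelin (SD, n = 2 each). In limma this gave a log2 fold change of 1.58 with a SE of 0.18 and an adjusted p of 0.0478. This call is close to the threshold. It was kept in 3 of the 15 alternatives and lost in 12. In limma the losses included each kept probe on its own (adjusted p = 0.0556), quantile normalization (0.0556) and the deposited table (0.0589). Others were the replicate number as a block (0.0936), arrays of like background paired as a block (0.192) and no filter on dim probes (0.403). The methods' t-test after adjustment (adjusted p = 0.198) and any 1 array left out lost the call too. The log2 fold change of AREG stayed between 1.47 and 1.69 in all of the 15 alternatives. Those that changed only the filter, the test, the block or the choice of probe could not move it, since AREG has 1 probe.

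EREG encodes epiregulin, a ligand of EGFR and ERBB4, and its brighter probe read 12.25 and 11.77 in control and 12.78 and 13.05 in embelin. The embelin arrays lay above the controls with a gap of 0.53 between the nearest of them. The means were 12.01 ± 0.34 and 12.92 ± 0.19 (SD, n = 2 each), and the log2 fold change of 0.90 (SE 0.25) had an adjusted p of 0.168 in limma. The dimmer probe of EREG read 9.17 and 7.88 in control and 9.90 and 9.20 in embelin. These groups do not overlap either, but the higher control and the lower embelin array nearly touch. Its log2 fold change of 1.02 had an adjusted p of 0.407 in limma over all kept probes. The sequence of this dimmer probe is given because the second reading comes from it, and its position in the transcript was not determined. All letters are in lower case, and 1 forward frame reads through it without a stop codon.
EREG, dimmer probe: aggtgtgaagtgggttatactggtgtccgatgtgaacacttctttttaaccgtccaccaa

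Among protein-coding genes of chromosome 4, in the RefSeq annotation of GRCh38.p14, the order is MTHFD2L, EPGN, EREG, AREG, BTC and PARM1. EREG and AREG, which both read higher in embelin, are direct neighbours, and BTC on the other side of AREG did not read higher. Windows from 250 bases before to 50 bases after the start were at hand for 8 of the 10 genes (10 windows), and both strands were searched for a cyclic AMP response element (TGACGTCA), an AP-1 site (TGACTCA), an antioxidant response element (TGACNNNGC) and a TATA box (TATAAA). An antioxidant response element can begin with the letters of an AP-1 site, so that matches of both can overlap. The share of all 35116 windows of that length with a match was 1.85%, 4.95%, 13.3% and 11.5% in that order. AREG had the response element 65 bases and the TATA box 29 bases before its start, and EREG had the TATA box 32 bases before its start. Among the other members 1 window of EGFR held matches, with AP-1 sites at 232 and 136 bases and TATA boxes at 146 and 36 bases before the start. A match is a description of letters and not a site in use. The 250 bases before the start of both neighbours are given side by side, from RefSeq with build GRCh38.p14, because they are the promoters of the called ligand and of the gene beside it. Capitals mark the matches.
AREG promoter, chr4:74444886-74445135, plus strand: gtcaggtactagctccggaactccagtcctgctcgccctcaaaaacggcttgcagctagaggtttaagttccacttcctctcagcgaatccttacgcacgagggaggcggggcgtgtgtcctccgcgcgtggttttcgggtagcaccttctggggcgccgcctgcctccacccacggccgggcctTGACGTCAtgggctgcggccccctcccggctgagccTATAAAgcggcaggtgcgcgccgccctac
EREG promoter, chr4:74364895-74365144, plus strand: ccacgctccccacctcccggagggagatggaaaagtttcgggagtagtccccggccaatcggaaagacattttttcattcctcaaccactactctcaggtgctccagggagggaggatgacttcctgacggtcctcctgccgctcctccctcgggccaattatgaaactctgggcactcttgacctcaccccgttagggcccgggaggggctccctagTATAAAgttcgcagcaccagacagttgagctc

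BTC encodes betacellulin, a ligand of EGFR and ERBB4. Its standing probe read 7.50 and 6.64 in control and 6.94 and 6.37 in embelin. The groups overlapped, with embelin 1 between the controls. Its difference was -0.42 in log2 (SE 0.39, adjusted p = 0.619 in limma), and a further probe of BTC was not well above background on any array.

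HBEGF encodes heparin-binding EGF-like growth factor, which is also the receptor of diphtheria toxin. Its 2 probes gave different accounts of the controls. The standing probe read 5.20 and 8.15 in control and 8.52 and 8.68 in embelin, so that control 1 was far below the other 3 arrays. The means were 6.68 ± 2.09 and 8.60 ± 0.11 (SD, n = 2 each), and the log2 fold change of 1.93 (SE 1.04) had an adjusted p of 0.400 in limma. Without control 1 the log2 fold change was 0.45, and without control 2 it was 3.40. The dimmer probe read 6.01 and 5.79 in control and 8.45 and 8.28 in embelin. Here both controls lay more than 2 log2 units below both embelin arrays, though only control 1 was well above background among them. The measured means were 5.90 ± 0.15 and 8.36 ± 0.12 (SD, n = 2 each), and the log2 fold change of 2.47 (SE 0.20) had an adjusted p of 0.0309 in limma over all 26145 kept probes tested. In that fit 1.08% of all probes were called, and of the members' probes 2 passed, this one and the standing probe of ERRFI1. This HBEGF probe passed the filter only through the embelin arrays, where it is high, and control 2 lay below 5.85, the lowest signal well above background on that array. Its size of change and its p are therefore a description and not support for a rise. Its sequence is given because the HBEGF probes gave different readings of the controls, and 2 forward frames read through it without a stop codon.
HBEGF, dimmer probe: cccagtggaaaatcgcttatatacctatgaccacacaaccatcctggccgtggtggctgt

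TGFA encodes transforming growth factor alpha, the ligand most like EGF in its binding. Its 1 probe read 4.66 and 7.34 in control and 8.27 and 5.83 in embelin, all well above background. The groups overlapped, since the lower embelin array lay between the controls. The log2 fold change of 1.05 (SE 1.26) had an adjusted p of 0.709 in limma, and it turned negative without control 1 (-0.29) or without embelin 1 (-0.17). The noisier array of each group read higher, and within arrays of like background the difference was 0.93 (embelin 1 minus control 2) and 1.17 (embelin 2 minus control 1).

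NRG1 encodes the neuregulins, ligands of ERBB3 and ERBB4 with many splice forms, and it had 6 probes, 5 of them kept. The standing probe, designed on NM_013957, read 13.65 and 12.95 in control and 14.00 and 13.61 in embelin. The groups overlapped by 0.04, with control 1 just above embelin 2. Embelin was above control by 0.51 in log2 (SE 0.32, adjusted p = 0.455 in limma). Probes on NM_013962 and NM_013961, which share 41 bases, gave 0.51 and 0.50 and did not overlap between groups. The 2 probes on NM_001160002 gave 0.12 and 0.14 with overlapping groups, and the dim probe on NM_013959 was not kept. The kept probes thus ranged from 0.12 to 0.51, and none passed limma's test over all kept probes.

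EGFR was read by 6 probes for 4 transcripts. The standing probe, on the full-length transcript NM_005228, read 9.29 and 9.13 in control and 9.80 and 10.34 in embelin. Both embelin arrays were above both controls. The means were 9.21 ± 0.12 and 10.07 ± 0.38 (SD, n = 2 each), and the 1.82-fold difference (log2 0.86, SE 0.25) had an adjusted p of 0.186 in limma. The other 3 accessions are shorter transcripts whose products lack the kinase domain. Both probes on NM_201283 were well above background on all 4 arrays and read 0.17 and 0.08, with overlapping groups. The probe on NM_201282 read 4.25 and 3.65 in control and 7.10 and 5.29 in embelin, a log2 fold change of 2.25 with an adjusted p of 0.208 in limma over all kept probes. Control 2 was not well above background there, and the probe was kept only through the embelin arrays. The 2 probes on NM_201284, which share 59 bases, were not kept and read -0.01 and -0.13. Probes of EGFR therefore spread from -0.13 to 2.25 in log2 fold change.

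ERBB2 was the gene with the lowest log2 fold change of the 10. Its standing probe read 13.14 and 13.63 in control and 12.60 and 13.13 in embelin. The groups did not overlap, but control 1 and embelin 2 differed by only 0.01. The means were 13.39 ± 0.35 and 12.86 ± 0.38 (SD, n = 2 each), and the log2 fold change of -0.53 (SE 0.30) had an adjusted p of 0.417 in limma. The second ERBB2 probe, well above background on 1 array of each group and not kept, read -0.60.

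ERBB3 had 5 probes that did not point one way. Its only kept probe, designed on the accession U88357, whose transcript form was not settled here, read 4.77 and 3.63 in control and 6.79 and 5.55 in embelin. The log2 fold change of 1.97 (SE 0.60) had an adjusted p of 0.201 in limma, control 2 was not well above background, and the probe was kept only through the embelin arrays. The probe on the reference transcript NM_001982 read 6.08 and 5.65 in control and 4.97 and 5.26 in embelin, lower by 0.75 on the log2 scale. The 2 probes on the short form NM_001005915, which share 59 bases, were lower by 0.63 and 0.73. These 3 probes were brighter in control than in embelin on every array, but were well above background on only 1 array of each group and were not kept. The direction of ERBB3 thus depended on the probe and on the filter on dim probes. With no filter the brightest ERBB3 probe stood for the gene, and the value was -0.73.

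**Figure D2:**
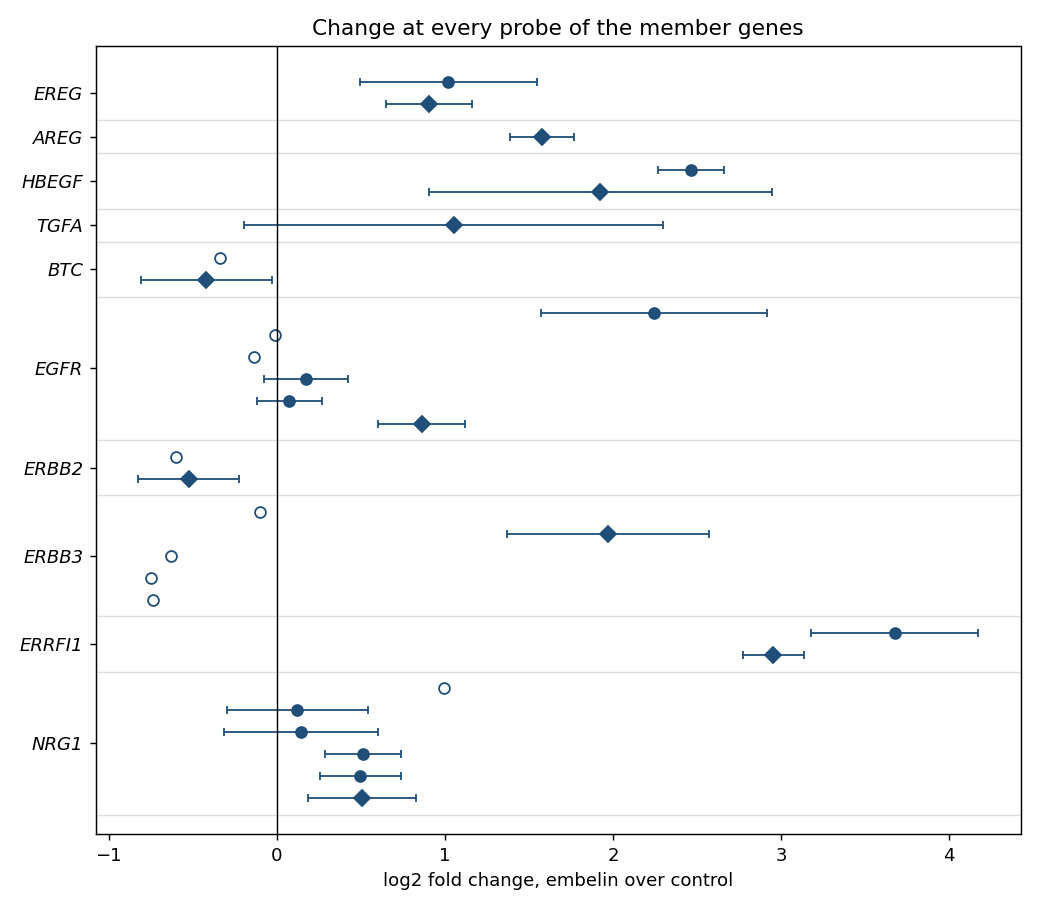
Log2 fold change of embelin over control (x axis) at each of the 29 probes, grouped by gene, with diamonds for standing probes, filled circles for other kept probes, open circles for probes not kept, and bars of 1 SE from limma over all kept probes. The probes of ERRFI1, HBEGF and EREG all lie above 0, while those of EGFR and ERBB3 are spread to both sides.

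ERRFI1, the inhibitor, had the largest change of the 10 genes. Its standing probe read 12.76 and 12.73 in control and 15.79 and 15.61 in embelin. Each embelin array was at least 2.85 log2 units above its control of like background. The means were 12.74 ± 0.02 and 15.70 ± 0.13 (SD, n = 2 each), which gives a log2 fold change of 2.96 with a SE of 0.17 and an adjusted p of 0.0204 in limma. Over all kept probes the adjusted p in limma was 0.0265. The dimmer probe read 5.41 and 4.05 in control and 8.49 and 8.33 in embelin, and control 2 was not well above background. The log2 fold change of 3.68 (SE 0.50) had an adjusted p of 0.0632 in limma over all kept probes, and it was kept only through the embelin arrays. The log2 fold change at the standing probe lay between 2.87 and 3.04 with any 1 array left out, where no gene kept its call. With all 4 arrays the ERRFI1 call was lost in limma with no filter on dim probes (adjusted p = 0.330). The replicate number as a block (0.0684) and arrays of like background paired as a block (0.179) lost it too. It was also lost with the methods' t-test (adjusted p = 0.143). The dimmer probe and the promoter of ERRFI1 are given because this gene changed most. The probe reads in 2 forward frames without a stop codon. The 250 bases before the start (RefSeq, GRCh38.p14) held no exact match to the letters of any of the 4 motifs. Only TATAAA was searched for as a TATA box, so similar letters such as tatatata, which this promoter holds, were not counted.
ERRFI1, dimmer probe: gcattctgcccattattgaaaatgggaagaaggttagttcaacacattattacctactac
ERRFI1 promoter, chr1:8026310-8026559, minus strand: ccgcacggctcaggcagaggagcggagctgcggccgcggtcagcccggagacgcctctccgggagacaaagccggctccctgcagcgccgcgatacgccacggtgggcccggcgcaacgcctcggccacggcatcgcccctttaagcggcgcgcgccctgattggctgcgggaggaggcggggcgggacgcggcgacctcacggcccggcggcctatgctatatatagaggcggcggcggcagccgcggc

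Since 1 control and 1 embelin array had lower background and the others noisier background, each gene was also read within these pairs. ERRFI1 rose by 3.06 in the noisier pair and by 2.85 in the quieter pair. AREG read 1.63 and 1.53 in the same order, and EREG 1.01 and 0.80. The dimmer probes read 4.44 and 2.92 for ERRFI1 and 2.01 and 0.03 for EREG, so these differed between the pairs. At their standing probes these 3 genes, with EGFR (0.67 and 1.05), TGFA (0.93 and 1.17) and ERBB3 (3.16 and 0.78), read higher in both pairs. HBEGF too read higher in both pairs, by 0.37 and 3.48 at its standing probe. Its dimmer probe, kept only through the embelin arrays, read 2.66 and 2.27. NRG1 read 1.05 and -0.04 and ERBB2 -1.04 and -0.01, so that these genes differed between groups mainly in 1 pair. BTC read 0.29 and -1.13, with opposite signs in the pairs. All these values are single differences between 2 arrays with no test, and the part of the background in them was not tested.

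**Figure D3:**
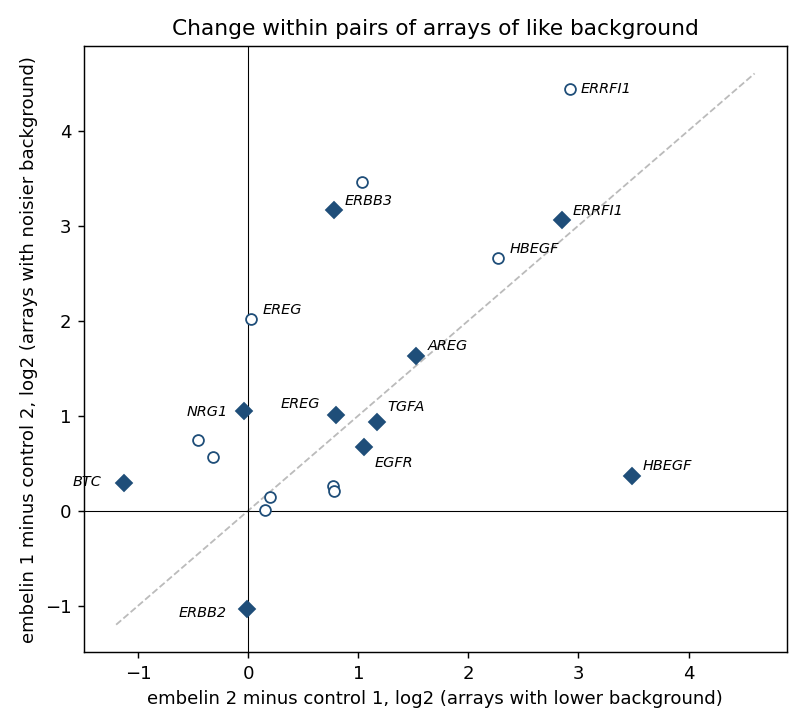
Difference of embelin minus control in log2 signal for each of the 20 kept probes, in the pair of arrays with lower background (x axis) and the pair with noisier background (y axis), with diamonds for standing probes, open circles for the others and a dashed line where both are equal. The standing probes of ERRFI1 and AREG lie near the line, the other ERRFI1 probe lies above it at 2.92 and 4.44, ERBB3 lies above it, and the standing probe of HBEGF lies at 3.48 and 0.37.

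Further genes of the pathway were taken from 6 lists with 72 genes, of which 62 were tested. In limma 1 was called higher and 1 lower, against 1.25% and 0.561% of all genes. At least 2-fold changes were read upward in 4 and downward in 4, against 6.66% and 5.95%, and the median log2 fold change was -0.15. At an unadjusted p under 0.05, 12 of the 62 passed, against 19.5% of all genes.

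The called lower gene was NRG2, a neuregulin that binds ERBB3 and ERBB4. It read 8.65 and 8.52 in control and 7.13 and 7.21 in embelin. The groups stood far apart, with a log2 fold change of -1.41 (SE 0.16, adjusted p = 0.0489 in limma). This call too is close to the threshold, and it was kept in 3 of the 15 alternatives and lost in 12. In limma the losses included quantile normalization (adjusted p = 0.0573), the deposited table (0.0593) and each probe alone (0.0596). Others were no filter on dim probes (0.412) and any 1 array left out. NRG4, the only other gene tested in the list of remaining ligands and receptors, read 6.97 ± 0.93 in control and 6.16 ± 0.14 in embelin (SD, n = 2 each; adjusted p = 0.437 in limma). EGF, EPGN, NRG3 and ERBB4, the last being the fourth receptor of the family, did not pass the filter on dim probes.

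The called higher gene was PHLDA1, a pleckstrin homology protein that is transcribed downstream of ERK. It read 11.75 and 11.58 in control and 13.22 and 13.17 in embelin, a log2 fold change of 1.53 (SE 0.17, adjusted p = 0.0458 in limma). The call was kept in 4 of the 15 alternatives and lost in 11. In limma the losses included the deposited table (adjusted p = 0.0583), the mean over its probes (0.0824) and each probe alone (0.0548). Others were no filter on dim probes (0.400) and any 1 array left out. The other 3 kept probes of PHLDA1 read 0.42 to 1.52. PHLDA1 was 1 of 10 transcripts in the list of ERK pathway output, and 3 of these 10 read higher and 7 lower, with a median of -0.34. At an unadjusted p under 0.05, 5 of the 10 passed. EPHA4, an ephrin receptor gene, had the largest value at -1.92 (adjusted p = 0.207 in limma), with no value on embelin 1, where its spot was an outlier. Among the others, chosen like EPHA4 after their values were seen, the ERK phosphatase genes DUSP6 and DUSP4 read -0.43 (adjusted p = 0.401) and 0.52 (adjusted p = 0.200), and SPRY2, a feedback inhibitor of receptor signalling, read -0.90 (adjusted p = 0.0991), all in limma.

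No gene passed limma's adjusted test among the sheddases and their regulators (11 of 12 tested, 0 at an unadjusted p under 0.05, median 0.01), the proteins of receptor restraint and turnover (11 of 13 tested, 2 at an unadjusted p under 0.05, median 0.16), the receptor-proximal adaptors (14 of 17 tested, 4 at an unadjusted p under 0.05, median -0.17) and receptor endocytosis (14 of 14 tested, 0 at an unadjusted p under 0.05, median -0.05). The methods' t-test called none of them after adjustment either. ADAM17, the main sheddase of AREG, EREG, HBEGF and TGFA, had the largest value of its list and read 12.61 ± 0.30 in control and 13.11 ± 0.23 in embelin (SD, n = 2 each). Its log2 fold change was 0.49 (SE 0.24, adjusted p = 0.366 in limma). SOCS5, which promotes the degradation of EGFR, read 9.30 and 9.17 in control and 7.69 and 7.88 in embelin. It missed the threshold narrowly with a log2 fold change of -1.45 (SE 0.18, adjusted p = 0.0508 in limma), and its second kept probe read -1.53. SOS1, which loads RAS with GTP, read 5.14 and 5.41 in control and 7.50 and 5.69 in embelin, with 1 control array well above background and an adjusted p of 0.370 in limma. The adaptor genes CRKL and GAB2, chosen after their values were seen, read 1.27 (adjusted p = 0.0651) and 1.03 (adjusted p = 0.0741) in limma. GRB7, chosen in the same way, read -0.98 (adjusted p = 0.105 in limma). PIK3CB read -0.90, with no value on embelin 2. Of the 14 tested adaptors 5 read higher and 9 lower. AP2A1, a subunit of the clathrin adaptor complex, had the largest value of the endocytosis list at -0.42 (adjusted p = 0.424 in limma).

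**Figure D4:**
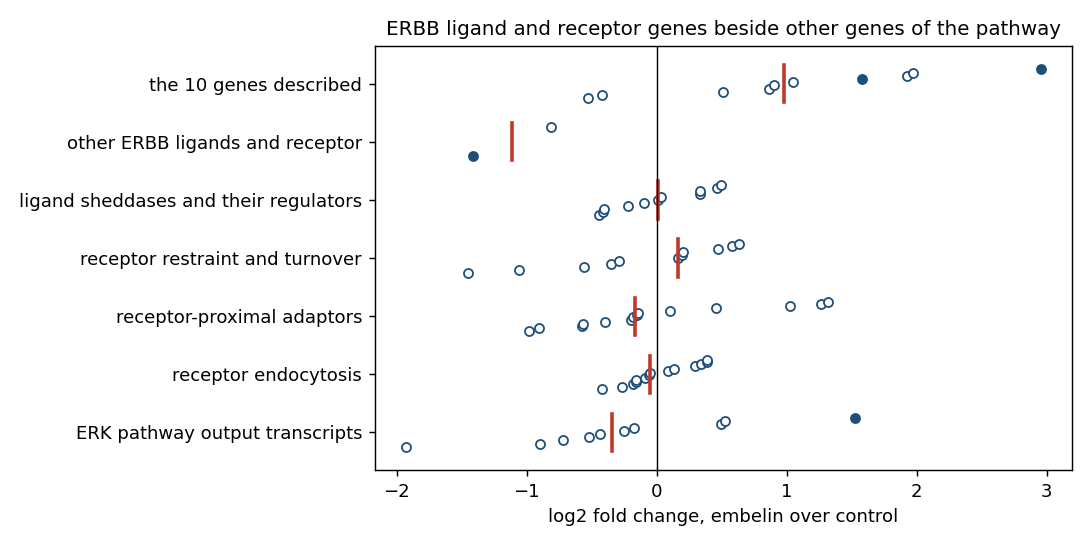
Log2 fold change of embelin over control (x axis) for the 10 genes described and for the tested genes of the 6 pathway lists, with filled circles for genes called by limma, open circles for the others and a red bar for the median of each list. The median of the 10 genes is 0.98, that of the remaining ligands -1.11 over 2 genes, and those of the other lists lie between -0.34 and 0.16.

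The genes most like ERRFI1 and ERBB2 over the 4 arrays were sought among 15284 genes well above background on every array, by the root mean square difference of log2 signals after each gene was centred on its control mean. The 3 nearest to ERRFI1 were KDM7A (0.0844), BMP6 (0.0963) and KLF6 (0.133), with log2 fold changes of 2.96, 2.95 and 2.80. KDM7A encodes a histone demethylase, BMP6 a bone morphogenetic protein and KLF6 a zinc finger transcription factor. The 3 nearest to ERBB2 were SLC35D2 (0.0309), CNN2 (0.0391) and ABCF2-H2BK1 (0.0401), the last of which the array design names ABCF2. This likeness describes 4 arrays of 2 conditions.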

How the data were processed

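The authors deposited single-colour intensities for 2 control and 2 embelin arrays, which the file headers credit to Feature Extraction 10.7.3.1, after background subtraction and detrending and not normalized between arrays, with a table of the same intensities per probe. Intensities were scaled to a common 75th percentile over the 51538 non-control spots, given a floor of 1 and turned into log2 values. Outlier spots were left out. A probe was kept when the control pair, the embelin pair or both were well above background (26146 of 50238). Names came from accessions for 28595 probes, from a probe of the same name for 2341 and from the files for 19302. The brightest kept probe stood for a gene. Groups were compared with limma 3.58.1 in R 4.3.3 (lmFit, eBayes, two-sided, Benjamini-Hochberg over 17649 genes), and each kept probe in a second fit. The fit was also run on simulated arrays drawn from limma's own model, which cannot show how it performs on these arrays. An exact permutation test of 2 against 2 arrays cannot go below p = 0.333.

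The members and lists were chosen with earlier results of these data known, so no p was computed for a list. Genes named were the 10 members, the 3 called genes with the largest change of each pathway list or, where none was called, the largest, the 3 genes nearest to the largest rise and the largest fall among members well above background on all arrays, and cell type markers, not all of which are reported here. Others are said to be chosen after their values were seen. The alternatives were normexp background correction (offset 50), quantile normalization, the deposited table, no filter on dim probes, a filter on all 4 arrays, eBayes with trend and robust, the methods' t-test, a block for the replicate number, the mean over probes, each probe alone and leaving out each array. Pairing arrays of like background was added after the values were seen. The study's methods name no adjustment for the t-test, and here its p was adjusted like that of limma. Figures and scripts used Python 3.11.15.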

Additional observations from a re-analysis of the deposited data

How the results depend on the processing

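Of the 10 genes, 2 were called higher and none lower. The count called higher was 1 with quantile normalization, the deposited table, the mean over probes and each probe alone (ERRFI1 in each, without AREG). For each probe alone only standing probes were counted in this paragraph, which leaves out the called dimmer probe of HBEGF. Counts for the methods' t-test are after adjustment. The count called higher was 0 with no filter on dim probes and with the methods' t-test. No call was kept with any 1 array left out. The count was 2 with normexp, with the filter on all 4 arrays and with trend and robust. The count called lower was 0 in every alternative. For the pathway lists, 1 gene was called higher, and this was 3 with the filter on all 4 arrays, 2 with trend and robust and 0 with the deposited table, no filter, the methods' t-test, the mean over probes, each probe alone and any 1 array left out (0 to 0). Of the same lists, 1 gene was called lower, and this was 2 with normexp, the filter on all 4 arrays and trend and robust, and 0 with quantile normalization, the deposited table, no filter, the methods' t-test, the mean over probes, each probe alone and any 1 array left out (0 to 0).

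Among all genes, 221 were called higher and 99 lower. These counts were 422 and 278 with normexp, 142 and 44 with the deposited table, 419 and 345 with the filter on all 4 arrays, 566 and 499 with trend and robust, and 0 and 0 with no filter (limma, 1106 and 1239 at an unadjusted p under 0.05) and with the methods' t-test after adjustment (1161 and 1576 before it, 527 and 472 with a 2-fold change as well). With 1 array left out limma called none, and 973 to 1431 genes were higher and 994 to 1644 lower at an unadjusted p under 0.05. With 1 array in a group its spread is taken from the other group. No gene kept its call in these fits, so the loss of a call there is not particular to the genes named.

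Same-numbered arrays deviated together only weakly (correlation of deviations 0.175 over 17298 genes), and with 2 pairs the numbers are not taken to pair the samples. With the replicate number as a block, limma called 0 members and 0 genes of the lists in either direction, and 0 of all genes, with 1639 higher and 2045 lower at an unadjusted p under 0.05. With the crossed pairing, which joins arrays of like background, the counts were also 0, with 1228 and 1501.

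Signs turned for TGFA without control replicate 1 (-0.29) and without embelin replicate 1 (-0.17), where leaving out 1 array gave -0.29 to 2.39, for BTC without control replicate 1 (0.0078), where the range was -0.85 to 0.0078, and for ERBB3 with no filter (-0.73). The cause was not tested, except that ERBB3 was then read at another probe. ERRFI1 lay between 2.87 and 3.32 in log2 fold change over the 15 alternatives (limma and t-test adjusted p from 0.000497 to 0.330), AREG between 1.47 and 1.69 (0.00279 to 0.403), NRG2 between -1.47 and -1.09 (0.0217 to 0.412) and PHLDA1 between 1.22 and 1.62 (0.00388 to 0.400). Alternatives that change only the test or the block leave the log2 fold change of a gene as it is, so they add nothing to these ranges. With normexp HBEGF read 1.18, ERBB3 0.69 and TGFA 0.39. Control 2 was not well above background at the dimmer probes of HBEGF and ERRFI1, the kept probe of ERBB3 and the EGFR probe on NM_201282. With 2 arrays a group, precision is low throughout.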
